A study of Homo sapiens with 12 samples.

Results

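Enriched regions of the histone variants H3.1 and H3.3 that overlap the 500 bp to each side of the start or end of a protein-coding gene were described in 6 region lists from human mammary epithelial cells. The lists held 161322 regions on chromosomes 1 to 22 and X, and 7943 of them met the rule, counted per list. Of the 19974 protein-coding genes in the RefSeq table of GRCh38.p14, 15813 (79.2%) had a strand in the RefSeq promoter table, so that their start could be told from their end. Of the 4161 genes without a strand, 715 lie on chromosome 8, and regions near them were counted as lying at a gene end of unknown side.

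The cells were MCF10AER/vSrc, a line derived from the non-tumorigenic breast epithelial line MCF10A that carries the oncogene v-Src fused to an estrogen receptor domain, and the genotype is given as WT. Chromatin was immunoprecipitated for H3.1, which the series describes as H3.1/H3.2, or for H3.3, in control cells and 4 h or 24 h after D-alanine at a labelled dose of 10 nM, a treatment that the series says generates reactive oxygen species in the nucleus. D-alanine is commonly used at millimolar concentrations, and the unit of the labelled dose could not be checked here. Each of these 6 groups is 1 ChIP library with 1 input library, 12 samples in all, so no difference between conditions has a replicate check and none was tested. Each ChIP library held between 16837079 tags (H3.1 24 h) and 19576955 tags (H3.3 24 h). A region missing from a list was not called there, and the histone may still have been present.

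H3.1 is the histone H3 that cells deposit during DNA replication, through the chaperone CAF-1. H3.3 is made and deposited outside replication as well, by HIRA at active genes and by DAXX and ATRX at heterochromatin and telomeres. Around active gene starts, nucleosomes flank a depleted stretch and turn over quickly, and many of those starts lie in CpG islands, stretches in which CpG dinucleotides have not been lost. The downstream flank of such a start holds the first nucleosome that RNA polymerase meets. Gene ends are where transcripts are cleaved and polyadenylated.

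The promoters of the following 6 genes show the kinds of gene start that the lists reached, from CpG-poor to CpG-rich. In each list the start region with the highest lower bound of its fold interval was taken among regions lying across a start. Each line gives the 250 bases before the gene start on the gene's own strand, from RefSeq on GRCh38.p14, with every CpG in capitals. The UCP3 stretch is chr11:74009086-74009335 on the minus strand, FUNDC1 chrX:44542860-44543109 on the minus strand, and NLRP5 chr19:55986525-55986774 on the plus strand. The ZNF492 stretch is chr19:22634074-22634323, SLC6A18 chr5:1225131-1225380, and LCE2A chr1:152698095-152698344, all on the plus strand.
UCP3: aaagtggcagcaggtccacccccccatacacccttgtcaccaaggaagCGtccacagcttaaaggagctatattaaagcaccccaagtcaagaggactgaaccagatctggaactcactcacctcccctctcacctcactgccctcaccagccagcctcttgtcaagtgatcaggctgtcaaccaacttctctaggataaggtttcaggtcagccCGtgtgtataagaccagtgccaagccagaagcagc
FUNDC1: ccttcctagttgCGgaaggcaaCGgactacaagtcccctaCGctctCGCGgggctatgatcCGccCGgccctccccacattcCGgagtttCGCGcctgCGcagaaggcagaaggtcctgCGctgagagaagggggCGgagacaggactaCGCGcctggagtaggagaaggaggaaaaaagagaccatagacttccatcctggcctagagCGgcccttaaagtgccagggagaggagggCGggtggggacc
NLRP5: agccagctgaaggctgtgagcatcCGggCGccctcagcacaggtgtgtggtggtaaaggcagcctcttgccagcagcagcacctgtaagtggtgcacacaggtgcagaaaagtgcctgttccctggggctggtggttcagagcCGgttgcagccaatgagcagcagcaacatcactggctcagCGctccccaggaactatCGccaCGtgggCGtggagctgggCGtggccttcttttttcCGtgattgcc
ZNF492: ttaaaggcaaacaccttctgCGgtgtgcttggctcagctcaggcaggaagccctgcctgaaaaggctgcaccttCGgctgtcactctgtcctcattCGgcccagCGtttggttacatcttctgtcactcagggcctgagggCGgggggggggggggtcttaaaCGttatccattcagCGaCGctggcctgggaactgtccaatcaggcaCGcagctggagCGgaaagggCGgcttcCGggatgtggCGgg
SLC6A18: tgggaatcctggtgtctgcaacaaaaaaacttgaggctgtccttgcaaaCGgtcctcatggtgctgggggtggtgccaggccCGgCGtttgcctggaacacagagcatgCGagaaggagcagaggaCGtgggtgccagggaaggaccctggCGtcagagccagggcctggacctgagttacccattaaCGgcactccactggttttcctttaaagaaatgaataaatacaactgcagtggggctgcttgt
LCE2A: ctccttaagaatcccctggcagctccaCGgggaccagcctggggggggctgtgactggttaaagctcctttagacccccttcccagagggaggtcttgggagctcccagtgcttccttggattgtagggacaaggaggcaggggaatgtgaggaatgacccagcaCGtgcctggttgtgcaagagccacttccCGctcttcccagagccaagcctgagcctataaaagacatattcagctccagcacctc
The UCP3 and LCE2A stretches, from H3.1 control and H3.3 24 h, hold 2 and 3 CpG. The FUNDC1 and ZNF492 stretches, from the H3.1 4 h and H3.3 control lists, hold 17 and 13. NLRP5 (H3.1 24 h) holds 9 and SLC6A18 (H3.3 4 h) holds 7. Their CpG ratios, observed over expected as defined below, were 0.328 and 0.439, under the medians of their lists (0.79 and 0.693). UCP3, FUNDC1, ZNF492 and LCE2A also lay below the medians of their lists.

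Regions at gene ends made up different shares of the 6 lists, and the lists differed more at gene starts than at the other end. Of the H3.1 regions, 2028 of 44966 control regions lay within 500 bp of a gene end (4.51%, exact 95% interval 4.32 to 4.71), 490 of 7922 at 4 h (6.19%, 5.66 to 6.74) and 1294 of 13611 at 24 h (9.51%, 9.02 to 10.0). For H3.3 the order was the opposite, with 798 of 9839 in control cells (8.11%, 7.58 to 8.67), 166 of 3614 at 4 h (4.59%, 3.93 to 5.33) and 3167 of 81370 at 24 h (3.89%, 3.76 to 4.03). Regions of the same widths placed at every possible position of these chromosomes would meet the rule in 2.25% to 2.38% of cases. The H3.1 24 h share was 4.14 times that, the H3.3 control share 3.43 times and the H3.1 4 h share 2.6 times. The remaining ratios were 1.97 (H3.3 4 h), 1.96 (H3.1 control) and 1.73 (H3.3 24 h). These intervals, and all others below, cover counting error only.

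H3.1 start regions were 1.48% of the control list (664 regions), 2.84% of the 4 h list (225) and 5.11% of the 24 h list (696). H3.3 start regions were 4.11% of the control list (404), 1.74% of the 4 h list (63) and 1.43% of the 24 h list (1163). Same-width positions gave 0.9% to 0.954%, so start regions were 5.56 times as frequent as positions in H3.1 24 h and 4.33 times in H3.3 control, against 1.59 times in H3.3 24 h and 1.61 times in H3.1 control. At the other end of the gene the lists differed less. End regions were 2.17%, 1.93% and 2.54% of the H3.1 control, 4 h and 24 h lists, and 2.43%, 1.63% and 1.73% of the H3.3 lists, 1.71 to 2.7 times the share of positions.

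**Figure D1:**
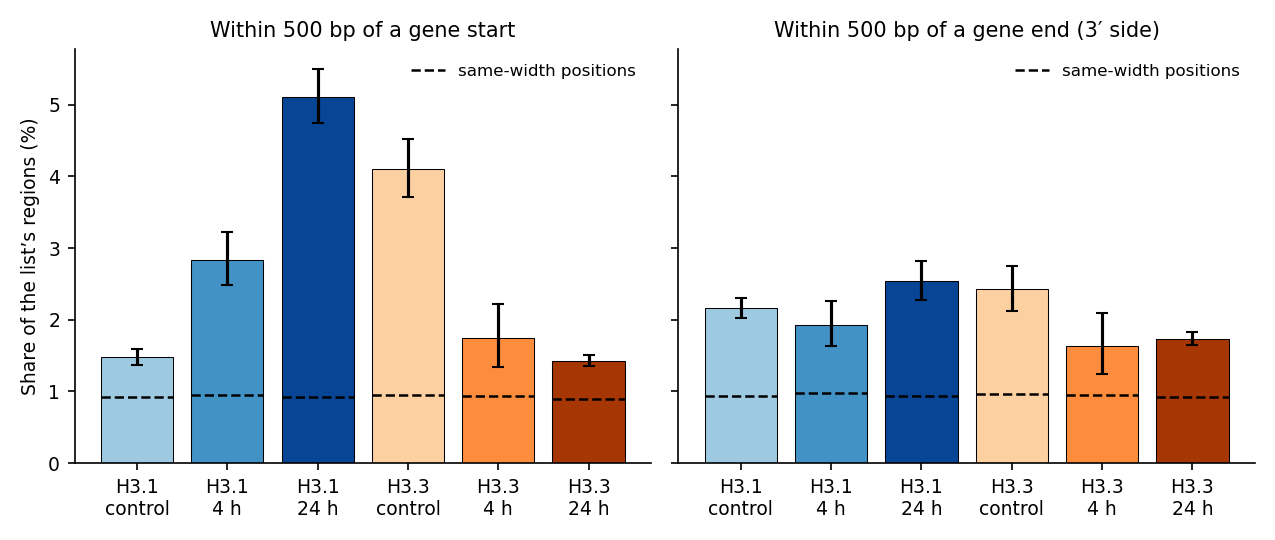
Share of each list's regions (%) within 500 bp of a gene start (left) and of the other gene end (right), with exact 95% intervals for counting error; dashed lines mark the share of same-width positions. The H3.1 24 h bar (5.11%) and the H3.3 control bar (4.11%) stand highest at starts, while end shares span 1.63% to 2.54%.

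Among regions whose gene had a strand, the share at starts ran in opposite directions for the 2 histones when each whole list was counted. For H3.1 it was 41.6% (39.2 to 44.1) in control cells, 61.0% (55.8 to 66.0) at 4 h and 69.0% (66.0 to 71.8) at 24 h. For H3.3 it was 65.0% (61.1 to 68.7), 54.8% (45.2 to 64.1) and 46.3% (44.3 to 48.3) in the same order. At an equal list length of 3614 regions, taken by score, it was 37.6%, 64.3% and 70.4% for H3.1, and 62.6%, 54.8% and 62.3% for H3.3, where 24 h and control were nearly equal. In the H3.1 24 h list 2.01 start regions were called for each end region, and in the H3.1 control list 0.682. Between 7 and 62 regions per list lay at a start and at an end at once, as the ZNF593 region described below does.

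The gene-end share varied with how the lists were cut, and the 2 long lists stood apart in fold and input. Regions with a fold over input of at least 8 were 34.5% of all H3.1 control regions and 46.5% of all H3.3 24 h regions, against 6.93% and 8.04% of the H3.1 regions called at 4 h and 24 h, 6.91% of H3.3 control and 7.72% of H3.3 4 h regions. Among gene-end regions the same fold was reached less often in each list, by 29.1% (H3.1 control), 40.8% (H3.3 24 h), 4.69%, 4.4%, 5.51% and 3.01% in the same order. These are deposited folds, which count 0.5 tag where a region held no input tag and so run high there. Such regions were 6.61% of gene-end and 8.29% of other regions in H3.1 control, and 9.35% and 13.5% in H3.3 24 h. With every list held to its 3614 highest-scoring regions, the shares at gene ends were 5.73% (H3.1 control), 8.44% (H3.1 4 h) and 15.1% (H3.1 24 h). For H3.3 they were 11.6%, 4.59% and 5.73% in the order control, 4 h and 24 h, where 24 h now stood above 4 h. Among regions with a fold of at least 8 the shares were 3.81%, 4.19% and 5.21% for H3.1 and 6.47%, 1.79% and 3.41% for H3.3, in the order control, 4 h and 24 h. Chromosome 19 held 7.26% of the genes and between 8.65% (H3.3 24 h) and 14.5% (H3.3 4 h, 24 of 166 regions) of the gene-end regions of a list. Of all regions of a list it held between 3.58% (H3.3 24 h) and 7.84% (H3.1 4 h), and 7.61% in H3.3 4 h. Without it the shares at gene ends were 4.23% and 3.69% in the 2 long lists and stayed within their intervals in the other 4.

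Gene-end regions held more ChIP tags than the other regions of their list, and also more input tags. Normalised tags, the tags per 10000000 tags of the library, had a median of 12.5 at gene ends and 10.1 elsewhere in H3.1 24 h, and of 14.5 and 11.2 in H3.3 control. In H3.1 control the medians were 9.65 and 9.11, and in H3.3 24 h 10.2 and 9.19. The median input tags were higher by 1 at gene ends than elsewhere in every list: 5 and 4 in H3.1 24 h and H3.3 control, 4 and 3 in both 4 h lists, and 3 and 2 in H3.1 control and H3.3 24 h. Median deposited folds were equal to or below those of other regions, 4.66 and 4.74 in H3.1 24 h and 6.77 and 7.34 in H3.3 24 h. With a floor of 3 input tags for regions without an input tag, the medians were 6.21 and 6.35 in H3.3 24 h and 5.51 and 5.72 in H3.1 control. The part of the input level in the calls was not tested. Regions over 1 kb wide were more frequent at gene ends than elsewhere in each list, from 1.2% and 0.232% in H3.3 4 h to 13.7% and 8.51% in H3.3 24 h. The H3.3 4 h values rest on 2 of 166 and 8 of 3448 regions. Any overlap with the window counts, so the rule itself admits wide regions more readily than narrow ones. Its part in these differences of width and tags was not tested.

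Regions just inside the window had median folds close to those just outside it, and equal or higher normalised tags. In H3.1 24 h the 151 regions 400 to 500 bp from a gene end had a median fold of 4.57 and 12.5 normalised tags, and the 139 regions 500 to 600 bp away had 4.84 and 11.3. In H3.3 control the 94 regions inside and the 123 outside both had a median fold of 4.63 and 14.5 normalised tags. In H3.1 4 h the 56 inside and 51 outside both had a median fold of 4.73, with 12 and 10.2 normalised tags, and in H3.3 4 h the 10 inside and 22 outside both had 4.98, with 12.1 and 9.82 normalised tags. In H3.1 control the median folds were 5.65 inside and 5.72 outside, with 9.11 normalised tags on both sides, and in H3.3 24 h 7.19 and 6.77, with 9.71 and 9.19.

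Start regions lay mostly on the downstream side of the start in 4 lists and on both sides in the others. Centres lay downstream in 52.7% (48.8 to 56.6), 64.4% (57.8 to 70.7) and 69.1% (65.5 to 72.5) of the H3.1 start regions of the control, 4 h and 24 h lists. The H3.3 lists had 66.1% (61.2 to 70.7), 63.5% (50.4 to 75.3) and 48.5% (45.6 to 51.4). The median centre lay 33, 174 and 233 bp downstream for H3.1 control, 4 h and 24 h. For H3.3 it lay 202 bp downstream in control cells, 285 bp downstream at 4 h, and at -18 bp, just upstream, at 24 h. Between 28.6% and 38.9% of start regions lay across the start itself.

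Region centres were counted in bins of 250 bp out to 3000 bp, once for each gene start or end in reach. A region near several genes can therefore count more than once. H3.1 24 h had its highest bin 250 to 500 bp downstream of the start, with 14 counts per 1000 regions of the list (190 counts). H3.3 control peaked in the same bin with 10.8 per 1000 (106 counts), and H3.3 4 h with 4.98 (18 counts). H3.1 4 h was highest 500 to 750 bp downstream with 6.44 per 1000 (51 counts). In that bin of 250 to 500 bp the 2 long lists, H3.1 control and H3.3 24 h, instead had their lowest value within 1000 bp of the start. It was 2.02 per 1000 (91 counts) and 1.73 per 1000 (141 counts). For H3.1 control other bins were close, with 98 counts each at 250 to 500 and 0 to 250 bp before the start. The first 250 bp after the start held 131.

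**Figure D2:**
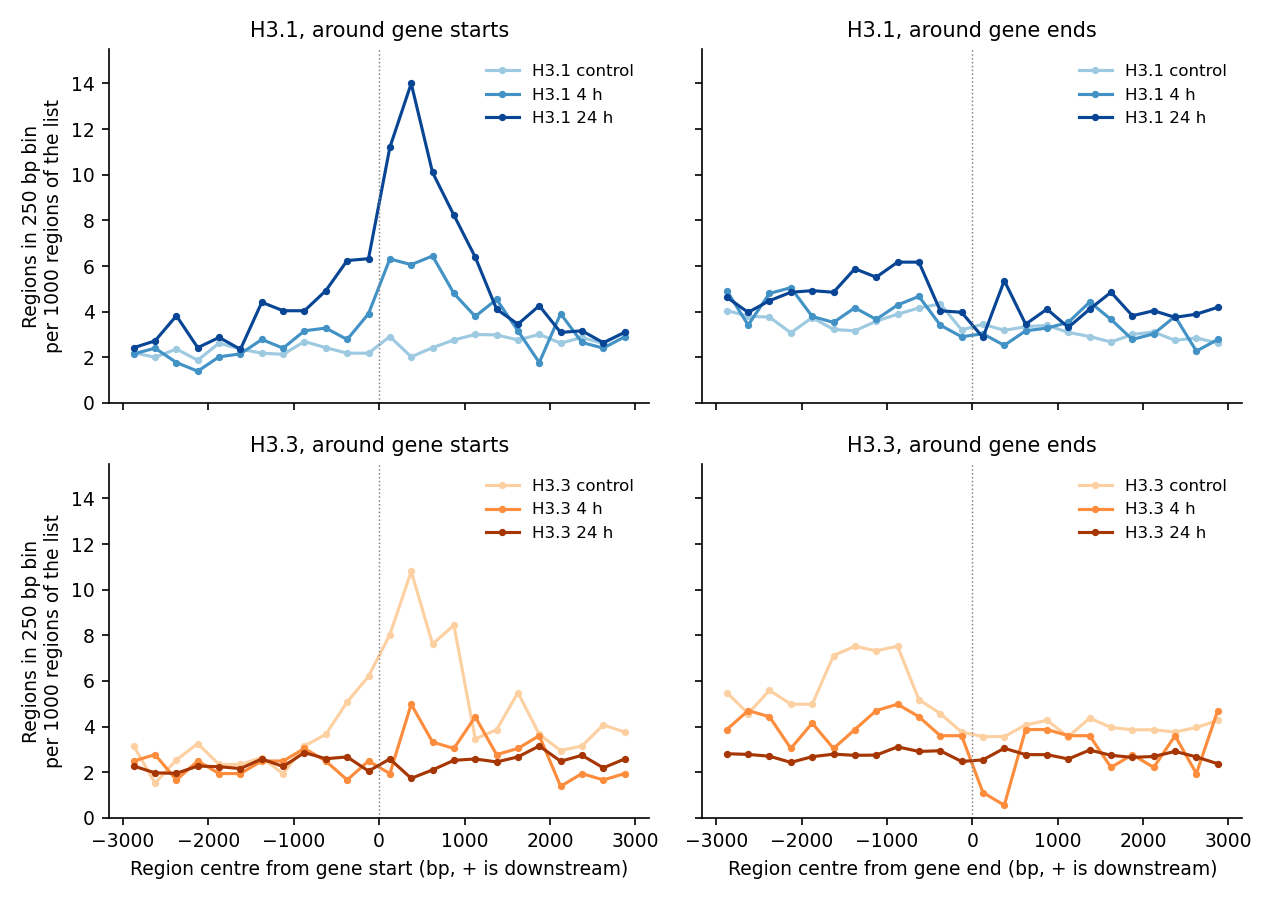
Counts of region centres per 1000 regions of the list by distance from gene starts (left) and gene ends (right), in bins of 250 bp, positive values downstream, for H3.1 (top) and H3.3 (bottom). A region counts once for each gene start or end in reach. H3.1 24 h (14) and H3.3 control (10.8) peak 250 to 500 bp after the start. There H3.1 control (2.02, 91 counts) and H3.3 24 h (1.73, 141 counts) are at their lowest within 1000 bp of it, for H3.1 control by a small margin.

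Around gene ends the centres lay beyond the end in 44.6% (41.4 to 47.7), 44.4% (36.4 to 52.7) and 43.9% (38.6 to 49.3) of H3.1 end regions of the control, 4 h and 24 h lists. For H3.3 they did so in 45.2% (38.8 to 51.7), 32.2% (20.6 to 45.6) and 49.4% (46.8 to 52.0). H3.3 control was highest in the bins 1250 to 1500 and 750 to 1000 bp before the end, each with 7.52 counts per 1000 regions. The first 250 bp after the end had 3.56. H3.1 24 h was highest in the bins 750 to 1000 and 500 to 750 bp before the end, each with 6.17 per 1000. It had 4.04 and 3.97 in the bins 250 to 500 and 0 to 250 bp before the end. After the end it had 2.87 in the first 250 bp and 5.36 at 250 to 500 bp. H3.3 4 h had 4.98 per 1000 at 750 to 1000 bp before the end. After it, 2 counts (0.553 per 1000) lay at 250 to 500 bp and 14 (3.87 per 1000) at 500 to 750 bp. In the 2 long lists the profile was shallower, with 4.34 and 2.62 as the highest and lowest bins out to 3000 bp for H3.1 control, and 3.11 and 2.37 for H3.3 24 h.

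The promoters behind the start regions differed in CpG content. A promoter here is the 300 bases from 250 before to 50 after the gene start, used for the 14244 genes whose RefSeq promoter lay within 500 bp of the start in the gene table. CpG content is the observed number of CpG over the number expected from the C and G present, and a promoter at 0.6 or more is called CpG-rich. CpG-rich promoters made up 39.6% (35.6 to 43.6) of those with an H3.1 start region in the control list, 67.3% (60.5 to 73.6) in the 4 h list and 75.3% (71.9 to 78.5) in the 24 h list. For H3.3 start regions they made up 72.5% (67.7 to 76.9), 55.4% (41.5 to 68.7) and 50.4% (47.4 to 53.4). Of all 14244 promoters 66.7% were CpG-rich. The median ratio was 0.434, 0.71 and 0.79 for H3.1 and 0.778, 0.693 and 0.603 for H3.3, against 0.769 for all promoters.

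In the 2 long lists the share of genes with a start region was higher among promoters with few CpG than among those with many. With promoters in 10 equal bins by CpG ratio, in the second bin (0.169 to 0.316), 15.9% had an H3.3 24 h start region and 9.13% an H3.1 control start region, against 4.63% and 1.76% in the highest bin (1.02 and above). In the H3.1 24 h list the lowest bin had fewest, 1.75% (1.14 to 2.58), and the fourth that had most, 6.32% (5.11 to 7.71). H3.3 control had 0.912% in the lowest bin and 3.79% in the sixth. With only the regions that lay across the start, CpG-rich promoters were 20.8%, 64.6% and 67.6% for the H3.1 control, 4 h and 24 h lists and 65.1%, 53.3% and 34.6% for the H3.3 lists. Among genes with a region at their end and none at their start, the list-to-list span was smaller, 61.2% to 75.6% CpG-rich promoters.

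**Figure D3:**
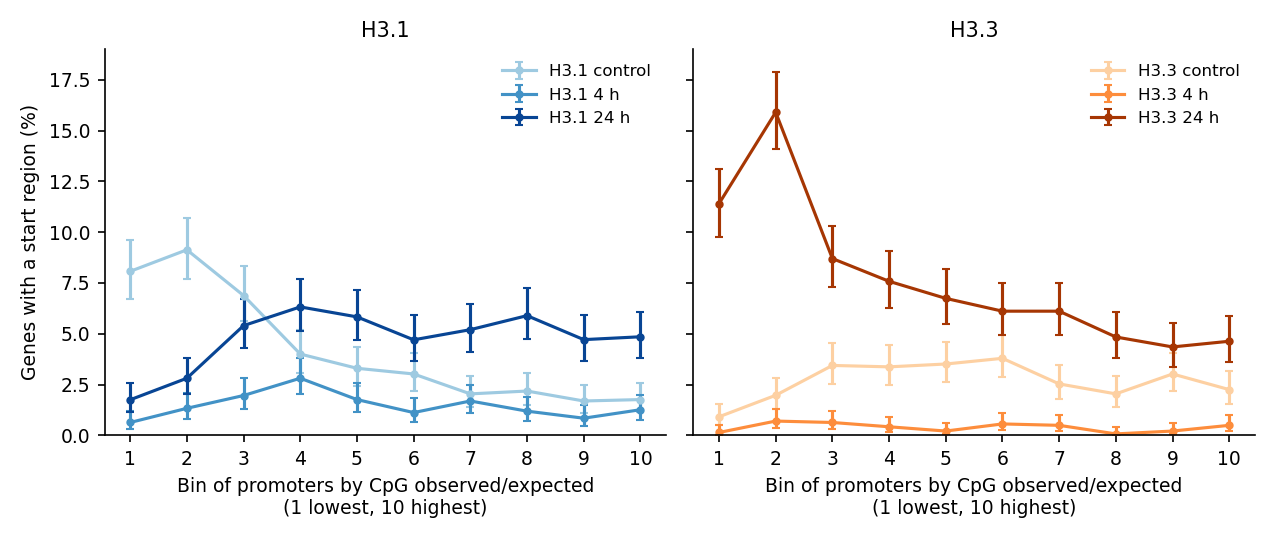
Share of genes with a start region (%) in 10 equal bins of 14244 promoters ordered by CpG observed over expected, with exact 95% intervals for counting error, for H3.1 (left) and H3.3 (right). H3.1 control and H3.3 24 h are highest in the second bin (9.13% and 15.9%), while H3.1 24 h is lowest in the first (1.75%).

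Short motifs were searched for in the same 300 bases. The GC box (GGGCGG on either strand), the site of SP/KLF factors, was present in 73.1% of promoters with an H3.1 24 h region (69.6 to 76.4) and 68.1% with an H3.3 control region (63.1 to 72.7), and in 63.5% (56.5 to 70.0) and 64.3% (50.4 to 76.6) with an H3.1 or H3.3 region at 4 h. It was present in 44.2% with an H3.1 control region (40.2 to 48.3) and 47.2% with an H3.3 24 h region (44.2 to 50.3), against 58.8% of all promoters of the same length. The AP-1 motif (TGANTCA on either strand), bound by FOS and JUN dimers, was in 8.68% of promoters with an H3.1 control region (6.55 to 11.2) and 7.08% with an H3.3 24 h region (5.63 to 8.77), against 5.69% of all. In the other 4 lists it was in fewer, 2.4% (0.785 to 5.52) in H3.1 4 h, 4.44% (3.01 to 6.27) in H3.1 24 h, 4.19% (2.41 to 6.71) in H3.3 control and 3.57% (0.435 to 12.3) in H3.3 4 h. The ETS motif (CCGGAAG on either strand) was in 5.77% to 10.2% of promoters with a region in H3.3 control and the 3 H3.1 lists, in 2 of 56 in H3.3 4 h and in 14.8% in H3.3 24 h, against 14.7% of all. The CCAAT box (CCAAT on either strand), bound by NF-Y, was in 27.9% to 33.9% of promoters with a region in 5 lists and in 40.7% for H3.3 24 h, against 36.9% of all. These matches are letters in a window, not sites of binding. Of the printed stretches, NLRP5 and ZNF492 hold a CCAAT box, FUNDC1 and ZNF492 a GC box, and LCE2A a TATA box (TATAAA on either strand). ZNF492 also holds an ETS motif, NLRP5 and LCE2A an E-box (CACGTG), and SLC6A18 an NRF1 core (GCATGCG on either strand). The CCAAT matches of UCP3 and FUNDC1 lie in the 50 bases after the start, which are not printed. The TATA box was in 7.69% to 11.5% of promoters with a region across the lists and in 9.86% of all.

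At the level of genes, 2921 of 15813 had a start region in at least 1 list. Of these, 2508 had it in 1 list, 377 in 2, 35 in 3 and 1 in 4. Start regions covered 678 genes in the H3.1 control list (4.29% of the 15813), 230 at 4 h (1.45%) and 742 at 24 h (4.69%). In the H3.3 lists they covered 419 genes (2.65%) of control cells, 64 (0.405%) at 4 h and 1238 (7.83%) at 24 h. Regions at the other end covered 1024 genes (6.48%), 161 (1.02%) and 363 (2.3%) for H3.1 control, 4 h and 24 h, and 257 (1.63%), 62 (0.392%) and 1507 (9.53%) for H3.3.

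For each list the 6 start regions and 4 end regions with the highest lower bound of the fold interval are named. In the H3.1 control list UCP3, a mitochondrial uncoupling protein of muscle, had 30 ChIP tags and no input tag at chromosome 11, 74008103 to 74009175. With the input set at the floor of 3 tags this is 8.47-fold over input, a ratio marked "at least" for this and later regions. It is not the limit of an interval. The exact 95% lower bound was 6.48 for UCP3, and it lay below the marked ratio at each named region without an input tag. PSAPL1, a prosaposin-like gene, had 34 tags against 1 input tag (28.81-fold, exact 95% interval 4.83 to 1170.8). LHCGR, the luteinizing hormone receptor, and VSIG10L, an immunoglobulin-domain gene, each had 20 tags and no input tag (at least 5.65-fold). LYPD8, a secreted protein of the colon, had 46 tags against 3 (12.99-fold, 4.18 to 65.3). GON4L had 22 tags and no input tag (at least 6.21-fold) in a region that also lay at SYT11.

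At 4 h the leading H3.1 start regions had smaller lower bounds. DCHS2, a large cadherin, had 21 tags against 1 (19.87-fold, 3.2 to 822.0). FUNDC1, a receptor for removal of mitochondria, had 48 tags against 7 (6.49-fold, 2.92 to 17) across its start. PDE4B, a phosphodiesterase that degrades cyclic AMP, had 23 tags against 2 (10.88-fold, 2.69 to 95.2). CTRB2, a pancreatic chymotrypsinogen, had 40 against 6 (6.31-fold, 2.66 to 18.2). SLC6A7, a proline transporter, had 35 against 5 (6.62-fold, 2.58 to 21.7). The sixth was LOC124902807, with 22 against 2 (10.41-fold, 2.56 to 91.3).

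At 24 h NLRP5, an oocyte gene, led the H3.1 starts with 34 tags against 3 at chromosome 19, 55986277 to 55987098 (12.2-fold, 3.84 to 62.1). DUSP3, a dual-specificity phosphatase that acts on MAP kinases, had 34 tags against 4 (9.15-fold, 3.26 to 35.5), centred at -413 bp from its start. ZNF593, a short zinc finger gene, had 23 against 2 (12.38-fold, 3.06 to 108.0) in 1 region within 500 bp of its start and of its end. TAC3, which encodes neurokinin B, had 12 tags and no input tag (at least 4.31-fold), and ERFL 13 and none (at least 4.67-fold). FAM131A had 57 tags against 11 (5.58-fold, 2.9 to 11.8).

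For H3.3 in control cells, KLF17 and ZNF492 each had 21 tags against 1 (19.43-fold, 3.13 to 804.0). KLF17 is a Krüppel-like factor of the early embryo and ZNF492 a zinc finger gene on chromosome 19. TRH, the thyrotropin-releasing hormone gene, had 14 tags and no input tag (at least 4.32-fold). IL1RL2, the receptor for interleukin-36, had 35 against 4 (8.1-fold, 2.9 to 31.4). A region of 1390 bp lay at the start of LCN8 and the end of its neighbour LCN15, both lipocalin genes, with 61 tags against 9 (6.27-fold, 3.1 to 14.4). FAM181B had 53 against 8 (6.13-fold, 2.9 to 14.9).

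The H3.3 4 h starts had the lowest bounds. CLEC2L, a C-type lectin, had 36 tags against 6 (5.97-fold, 2.49 to 17.4), and PRDM12, a factor of pain-sensing neurons, 48 against 10 (4.78-fold, 2.39 to 10.6). The region from 1224543 to 1225512 on chromosome 5 lay at the end of SLC6A19 and the start of SLC6A18, paired neutral amino acid transporter genes, with 34 tags against 6 (5.64-fold, 2.34 to 16.4). SLC34A3, a kidney phosphate transporter, had 35 against 7 (4.98-fold, 2.18 to 13.3). KLHL40, a muscle protein, had 38 against 8 (4.73-fold, 2.17 to 11.7), and ARHGAP45 28 against 5 (5.57-fold, 2.13 to 18.5). No start region of this list reached a fold of 8, the highest being 7.47.

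At 24 h the H3.3 start regions included the highest lower bound of the named starts, 7.16 at LCE2A. LCE2A, a cornified envelope gene of the skin, had 33 tags and no input tag at chromosome 1, 152697808 to 152698580 (at least 9.31-fold). S100A7A, another epidermal gene of that chromosome, had 44 tags against 1 (37.24-fold, 6.35 to 1504.2). TARS2 and QARS1, a mitochondrial threonyl- and a glutaminyl-tRNA synthetase, had 49 tags against 1 (41.48-fold, 7.1 to 1671.3) and 30 against none (at least 8.47-fold). DDC, which makes dopamine and serotonin from their precursors, also had 44 against 1. SLC36A3, of a family of proton-coupled amino acid transporters, had 31 tags and no input tag (at least 8.75-fold). Of the 1163 start regions of this list 99 held no input tag, against 0 to 2 in each of the 4 short lists and 40 in H3.1 control.

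**Figure D4:**
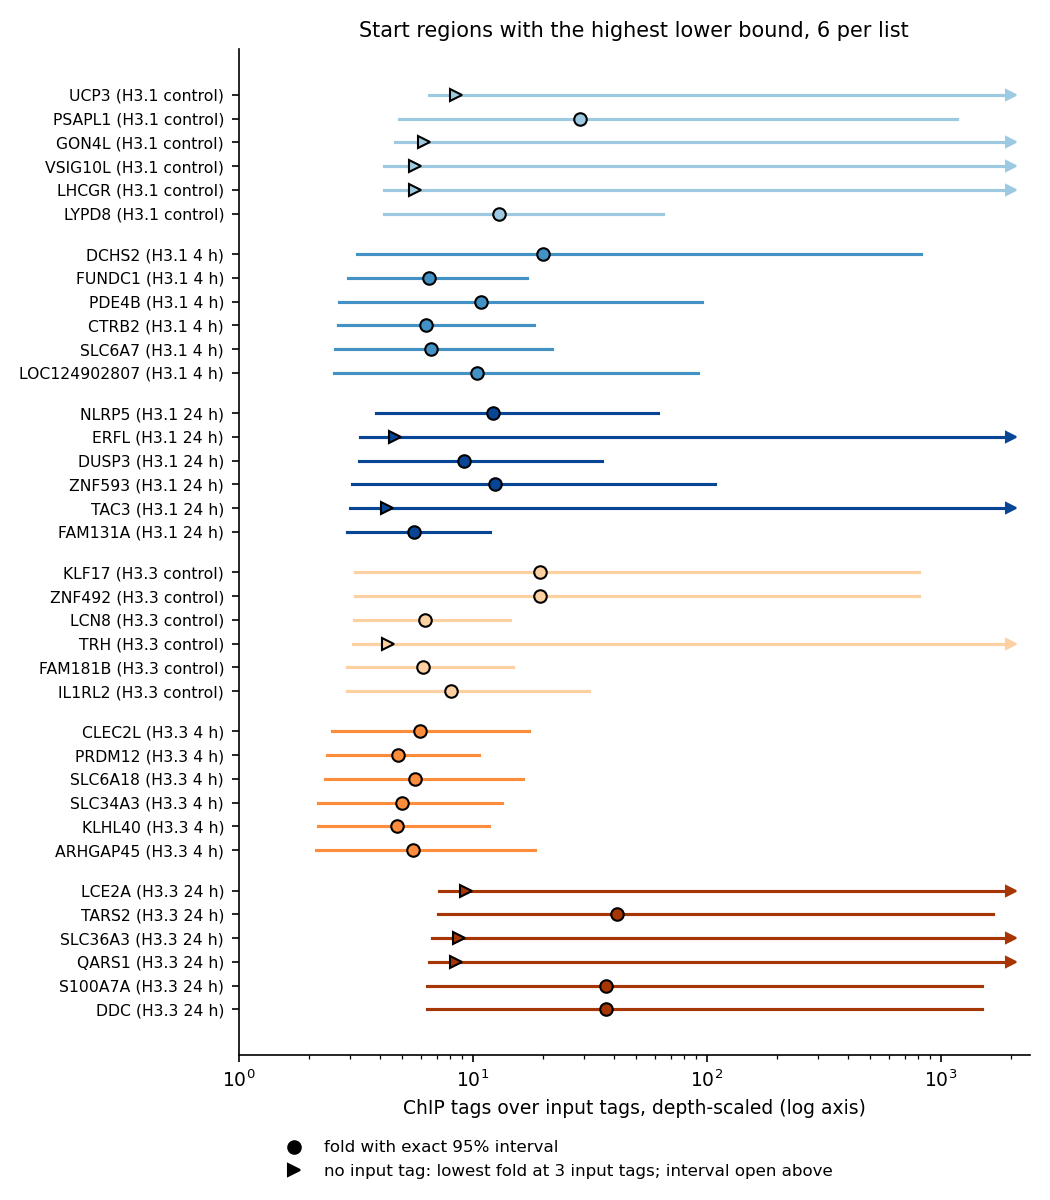
Depth-scaled ratio of ChIP to input tags (log axis) with exact 95% intervals for counting error, for the 6 start regions of each list with the highest lower bounds; triangles mark regions with no input tag, drawn at the fold for 3 input tags with an interval open above. Lower bounds run from 2.13 (ARHGAP45, H3.3 4 h) to 7.16 (LCE2A, H3.3 24 h).

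At the other gene end, SH2B1, an adaptor of insulin and leptin receptors, led the H3.1 control list with 29 tags and no input tag (at least 8.19-fold) across its end. SMIM33, CCDC157 and C11orf21 followed, with 35 tags against 1, 32 against 1 and 22 against none. At 4 h HELZ2, a helicase, had 20 against 1 (18.92-fold, 3.03 to 785.0), and ULK1, a kinase that starts autophagy, 46 against 7 (6.22-fold, 2.79 to 16.3). ANAPC2, a subunit of the anaphase-promoting complex, had 38 against 6, and LCE1F, a cornified envelope gene, 21 against 2. At 24 h LMBR1 had 29 against 3 (10.4-fold, 3.23 to 53.4), IGFBP5, a binding protein of insulin-like growth factors, 40 against 6 (7.17-fold, 3.02 to 20.7), and ITPA, which clears inosine nucleotides, 37 against 6 (6.64-fold, 2.78 to 19.2).

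For H3.3 in control cells CTSD, the lysosomal protease cathepsin D, had 38 tags against 4 at its end (8.79-fold, 3.17 to 33.9). The ends of CBARP and STK11, a kinase and tumour suppressor, shared a region of 62 tags against 9 (6.38-fold, 3.15 to 14.6). UBN1, a subunit of the HIRA complex that deposits H3.3, had 20 against 1 (18.51-fold, 2.96 to 767.0). At 4 h UVSSA, a factor of transcription-coupled repair, had 15 against 1 (14.93-fold, 2.3 to 629.0), BRF1, a factor of RNA polymerase III, 36 against 7 (5.12-fold, 2.25 to 13.6), and STPG1 19 against 1 (18.91-fold, 3.01 to 786.0). At 24 h FNDC5, the precursor of irisin, had 44 tags and no input tag over 1963 bp (at least 12.4-fold), with a lower bound of 9.68, the highest of these named regions. PPP2R5D, a regulatory subunit of phosphatase PP2A, had 59 against 2 (24.97-fold, 6.61 to 211.0). UNC5C, a netrin receptor, had 30 against none, and MORC2, a chromatin-compacting ATPase, 43 against 1.

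Most gene starts with a region in a treated list had no region of the control list within 2000 bp, and the reverse held as well. For H3.1, 179 of 230 starts at 4 h (1.13% of 15813 genes) and 621 of 742 at 24 h (3.93%) had none from the control list. Of 678 H3.1 control starts, 630 had none from the 4 h list (3.98% of genes) and 601 none from the 24 h list (3.8%). For H3.3, 48 of 64 starts at 4 h (0.304%) and 1199 of 1238 at 24 h (7.58%) had none from the control list, while 398 (2.52%) and 321 (2.03%) of 419 control starts had none from the 4 h and 24 h lists. The 4 h and 24 h comparisons share the control library.

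Those numbers stand beside the lists' reach over all genes. Of H3.1 4 h starts 22.2% (17 to 28.1) and of H3.1 24 h starts 16.3% (13.7 to 19.2) had an H3.1 control region within 2000 bp, against 11.8% of all genes. Of H3.3 4 h starts 25% (15 to 37.4) and of H3.3 24 h starts 3.15% (2.25 to 4.28) had an H3.3 control region nearby, against 5.12% of all genes. In the reverse direction 7.08% of H3.1 control starts (5.27 to 9.28) had an H3.1 4 h region within 2000 bp, against 3.18% of all genes, and 11.4% (9.07 to 14) an H3.1 24 h region, against 8.51%. Of H3.3 control starts 5.01% (3.13 to 7.56) had an H3.3 4 h region nearby, against 1.14% of all genes, and 23.4% (19.4 to 27.7) an H3.3 24 h region, against 20.6%. Among the leading treated starts without a control region, FUNDC1, PDE4B, CTRB2, SLC6A7 and PHYH led H3.1 at 4 h, where PHYH breaks down phytanic acid in peroxisomes and had 34 tags against 5 (6.43-fold, 2.5 to 21.1). NLRP5, ERFL, DUSP3, ZNF593 and TAC3 led H3.1 at 24 h. PRDM12, SLC6A18, SLC34A3, KLHL40 and ARHGAP45 led H3.3 at 4 h, and LCE2A, TARS2, SLC36A3, QARS1 and S100A7A led H3.3 at 24 h. VPREB1, part of the surrogate light chain of early B cells, was among the leading H3.1 control starts without a 24 h region, with 29 tags against 1 (24.57-fold, 4.07 to 1003.5).

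Gene-end regions seldom coincided between lists, with 1 exception. Of 3167 H3.3 24 h gene-end regions, 574 (18.1%) overlapped an H3.1 control gene-end region by at least 1 bp, and of 2028 H3.1 control regions 571 (28.2%) overlapped one of H3.3 24 h. Those lists shared 200 start genes, 16.2% of H3.3 24 h and 29.5% of H3.1 control start genes. Of H3.3 24 h gene-end regions 21.8% (20.4 to 23.3) overlapped any H3.1 control region, against 18.5% of the other H3.3 24 h regions. Of H3.1 control gene-end regions 32.8% (30.7 to 34.9) overlapped any H3.3 24 h region, against 33.9% of the other H3.1 control regions. H3.1 24 h and H3.3 control overlapped in 79 gene-end regions, 6.11% and 9.9% of their own, and shared 53 start genes. Of H3.3 control gene-end regions 11.4% (9.28 to 13.8) overlapped any H3.1 24 h region, against 8.07% of the other H3.3 control regions, and the reverse shares were 7.34% (5.98 to 8.9) and 5.89%. Within a histone, H3.1 4 h shared 37 gene-end regions with its control (7.55% and 1.82%) and H3.1 24 h shared 46 (3.55% and 2.27%). H3.3 4 h shared 14 with its control (8.43% and 1.75%) and H3.3 24 h shared 24 (0.758% and 3.01%). The H3.1 4 h gene-end regions overlapped any H3.1 control region in 8.78% of cases (6.42 to 11.6), against 8.6% of its other regions, and the H3.3 24 h gene-end regions any H3.3 control region in 0.884% (0.588 to 1.28), against 0.472%. The H3.3 4 h gene-end regions overlapped any H3.3 control region in 12.7% of cases (8.0 to 18.7), against 5.83% of its other regions. The H3.1 24 h gene-end regions overlapped any H3.1 control region in 4.48% (3.42 to 5.76), against 7.01% of its other regions.

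**Figure D5:**
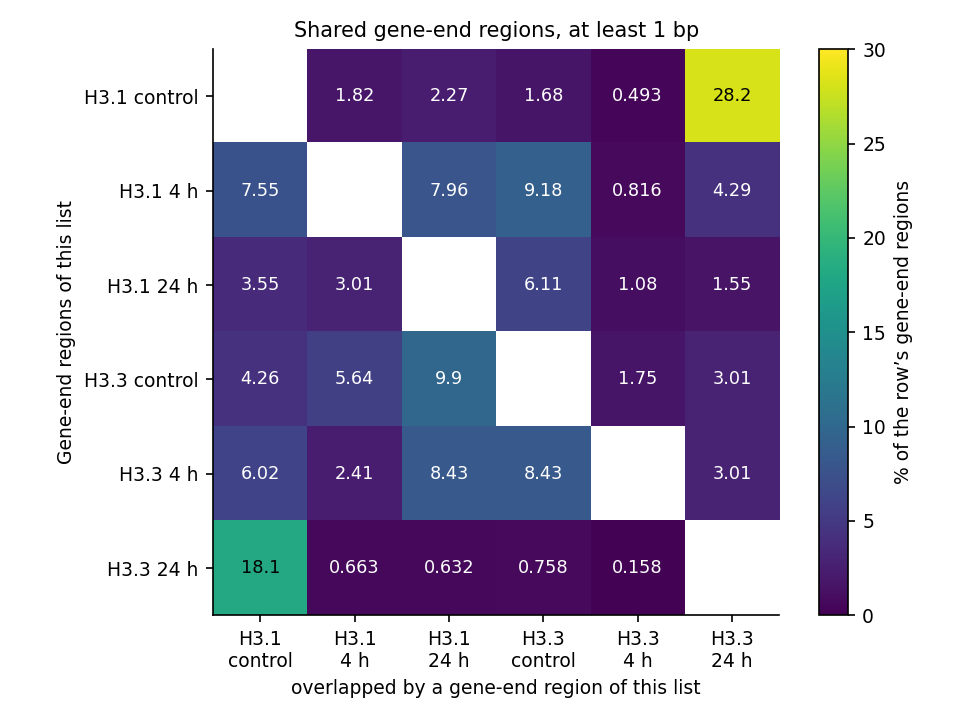
Percentage of the gene-end regions of each list (rows) that overlap a gene-end region of another list (columns) by at least 1 bp; colour gives the same percentage. The pair of H3.1 control (28.2%) and H3.3 24 h (18.1%) stands apart, and other cells lie between 0.158% and 9.9%.

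A few gene starts recurred. WDR86, a WD-repeat gene on chromosome 7, was the gene with start regions in 4 lists. It had 12.9 normalised tags in H3.1 control (10.17-fold, 2.52 to 88.8), 6.83 in H3.1 4 h (5.68-fold, 1.26 to 52.2), 22.9 in H3.3 control (4.22-fold, 2.02 to 9.87) and 10.2 in H3.3 24 h (5.64-fold, 1.67 to 29.7). The regions did not stack on 1 place, with centres upstream at -609 bp (H3.1 control) and -708 bp (H3.3 24 h) and downstream at 62 bp (H3.3 control) and 390 bp (H3.1 4 h). MIF, a pro-inflammatory cytokine, had 12.9 normalised tags in H3.1 control (5.08-fold, 1.75 to 20.2), 13.7 in H3.1 4 h (4.54-fold, 1.7 to 15.2) and 12.3 in H3.3 24 h (20.31-fold, 3.31 to 835.0). Its H3.1 control and H3.3 24 h regions were centred at -482 and -922 bp, while the H3.1 4 h region lay across the start. WNT9B, a Wnt ligand, had 11.8 in H3.1 control, 17.3 in H3.3 control and 26.1 in H3.3 24 h (10.79-fold, 3.97 to 41.1). PSAPL1 had 18.2 in H3.1 control, 22.6 in H3.1 24 h and 28.1 in H3.3 24 h. GPR25, a G protein-coupled receptor, TIFAB and DRICH1 were called in H3.1 control, H3.1 4 h and H3.3 24 h, and IL1RAPL2, an interleukin-1 receptor-like gene of chromosome X, in H3.1 control, H3.3 control and H3.3 24 h.

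Across 12 gene lists with 565 entries the counts were small. In 72 of 72 combinations of a gene list with a region list, the exact 95% interval of the share with a start region included the share of all 15813 genes given above. Of 24 immediate-early genes, which are switched on within minutes of a signal, JUN, JUNB and EGR1 had an H3.1 24 h start region (3 genes, 12.5%, 4.69% of all genes), and none had one in H3.1 control or H3.1 4 h. EGR1 had 31 tags against 6 (5.56-fold, 2.29 to 16.3) and JUN 50 against 13 (4.14-fold, 2.22 to 8.31), both downstream of the start, centred at 630 and 689 bp. ATF3, EGR2 and DUSP6 had an H3.3 24 h start region (3 genes, 12.5%, 7.83% of all genes), where ATF3 had 57 against 7 (6.89-fold, 3.14 to 17.9), and none had one in H3.3 control or H3.3 4 h. With a window of 1000 bp, 1 immediate-early gene was called in H3.1 control and 1 in H3.3 control. Of 36 homeobox and developmental regulators, 5 had an H3.1 24 h start region (13.9%, 4.69% of all genes): TBX5, HOXD8, NKX2-2, TBX1 and PAX5. TBX5, a heart and limb factor, was also called in H3.1 control and H3.1 4 h, with 6.43, 14.8 and 17.2 normalised tags in the control, 4 h and 24 h lists. Of 36 housekeeping genes, SRSF1, SRSF3, HNRNPA2B1 and HSPA5 had an H3.3 24 h start region (11.1%, 7.83% of all genes), and 0 had one in the other lists (95% interval up to 9.74%).

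Genes of epithelial identity and of the mesenchymal state were called most often in H3.3 24 h, the longest list. Of 24 epithelial genes 5 had a start region there (20.8%, 7.83% of all genes): KRT5 and KRT8, both keratins, LAMB3, a laminin chain, CLDN4, a tight-junction protein, and GRHL3, a transcription factor. KRT5 had 30 tags against 3 (8.46-fold, 2.63 to 43.3). GRHL1 was called in H3.3 4 h, ELF3 in H3.1 control, and none in H3.3 control. Of 26 mesenchymal genes 5 had one in H3.3 24 h (19.2%, 7.83% of all genes): ITGA5, MMP14, LOX, INHBA and TNC. LOX, which crosslinks collagen, had 42 against 5 (7.11-fold, 2.82 to 23), and INHBA, the activin A subunit, 49 against 5 (8.3-fold, 3.32 to 26.7). No mesenchymal gene had a start region in H3.3 control or H3.3 4 h, but with a window of 1000 bp 1 did in each. TNC was called in H3.3 24 h and in H3.1 control, and COL6A2 in H3.1 24 h and H3.1 4 h.

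Start regions at genes for chromatin, replication and redox defence were few in number, and the intervals of their shares included the share of all genes. Of 20 genes for H3 variants and their chaperones, NASP, CHD2 and CHAF1B had an H3.1 control start region (15%, 4.29% of all genes), and UBN1 had one in H3.1 24 h, 32 tags against 8 (4.3-fold, 1.94 to 10.8). The UBN1 region was centred at -611 bp and lay nearer to the start of another gene. NASP, a chaperone of soluble H3, also had an H3.3 24 h region with 26 tags and no input tag (at least 7.34-fold). Of 54 replication-dependent histone genes 6 had an H3.3 24 h start region (11.1%, 7.83% of all genes), among them H4C8 with 41 against 2 (17.35-fold, 4.51 to 148.0) and H1-3 with 44 against 4 (9.31-fold, 3.39 to 35.7). These genes are short, and all but H2AC21 also counted at their ends. Of 40 replication genes POLA2, POLE and TYMS had an H3.1 24 h start region (7.5%, 4.69% of all genes), where TYMS, the thymidylate synthase, had 34 against 7 (5.23-fold, 2.28 to 14).

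Of 33 NRF2 and antioxidant genes 3 had an H3.1 24 h start region (9.09%, 4.69% of all genes): SOD2, the mitochondrial superoxide dismutase, GPX1, a glutathione peroxidase, and GSTM1, a glutathione transferase. SOD2 had 21 tags against 5 (4.52-fold, 1.66 to 15.4), and none of the 33 had an H3.1 start region at 4 h or in control cells. At their ends TALDO1, TKT and SQSTM1 had an H3.1 control region (3 of 33 genes, 6.48% of all genes). OSGIN1 had an H3.1 4 h end region (1 of 33, 1.02% of all genes), and MAFG and GPX1 an H3.1 24 h one (2 of 33, 2.3%). GPX2, PRDX2 and FTL had an H3.3 24 h end region (3 of 33, 9.53% of all genes). SOD3, the extracellular dismutase, had an H3.3 start region at 24 h (7.62-fold, 1.82 to 67.7) and in control cells (4.01-fold, 1.1 to 21.9), and FTL, ferritin light chain, had one at 24 h (7.34-fold, 2.25 to 37.9). Of 40 DNA damage and oxidative repair genes 6 had an H3.3 24 h start region (15%, 7.83% of all genes): ATM, APEX1, XRCC1, ERCC1, CDKN1A and NUDT1. APEX1, the apurinic endonuclease of base excision repair, had 27 against 4 (5.71-fold, 1.99 to 22.5), and CDKN1A, the p21 inhibitor, 16 against 1 (13.54-fold, 2.1 to 568.0). The APEX1 region also lay at the start of OSGEP. OGG1, which removes oxidised guanine, had an H3.3 control region with 37 against 8 (4.28-fold, 1.96 to 10.6). Of 35 ABC transporter genes 2 had an H3.3 24 h start region (5.71%, 7.83% of all genes), ABCC12 and ABCA13, ABCC4 had one in H3.1 24 h and ABCA1 one in H3.3 control. Of 63 cytosolic ribosomal protein genes 5 had one in H3.3 24 h (7.94%, 7.83% of all genes), 2 in H3.1 24 h (3.17%, 4.69% of all genes) and 1 in H3.1 control (1.59%, 4.29% of all genes).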

How the data were processed

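ChIP and input libraries were sequenced as single-end reads of 50 bases, per the labels' protocols. Reads went through cutadapt 3.7, Bowtie2 2.4.1 on hg38, and HOMER 4.11.1, as listed per the submitters' processing notes. Each ChIP library was called on its own against its input, with a fold of 4, a p-value of 1.00e-04 and at most 1 tag per bp, per the file headers. The deposited signal is tags per 10000000 ChIP tags and the deposited score the authors' region score. The authors' ChIP tag counts and input tags were scaled to equal depth, by scaling the ChIP tags in 5 lists and the input in 1 (H3.1 24 h), and the deposited ratio is the fold between them. ChIP counts recovered from these were whole within 0.1 for 100.0% of regions. An input tag number written as 0.5 was read as 0. For named regions without an input tag, 3 tags were the floor for the fold. Median folds and the cut at a fold of 8 used the deposited fold, which counts 0.5 tag there, unless the floor is named. Input libraries recovered in this way held 15800000 to 18100000 tags.

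Positions, overlaps, exact binomial intervals and CpG ratios were computed with Python 3.11.15, numpy 2.4.6, pandas 2.3.3 and SciPy 1.17.1, and the placement was tested on simulated data. Regions off chromosomes 1 to 22 and X, 14 to 35 per list, were left out. Strand came from the RefSeq promoter table, and the start of a gene is its outer 5′ end in the gene table. The share of positions is that of all same-width placements on each chromosome. The members, the 12 gene lists and the choices were made with earlier results of these data known. Named genes are, per list, 6 start and 4 end regions with the highest lower bound of the fold interval, 5 starts per comparison with control without a region of the second list within 2000 bp, the 8 starts in most lists, and up to 4 members per gene list. Other members are named in lists after their regions were seen. Alternatives varied the window, placement, fold, list length, chromosome 19 and overlap.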

Additional observations from a re-analysis of the deposited data

Results flagged for a closer look

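For 4 measures, the values of gene-end regions moved in opposite directions from control for H3.1 and H3.3, with 1 library per group, and the differences were not tested. The share of regions at gene ends differed from control by 1.68 percentage points for H3.1 and -3.52 for H3.3 at 4 h, a gap of 5.2, and by 5.0 and -4.22 at 24 h, a gap of 9.22. The share of stranded gene-end regions at starts differed by 19.4 and -10.2 points at 4 h, a gap of 29.6, and by 27.4 and -18.7 at 24 h, a gap of 46.1. At equal list length the H3.3 part of that difference at 24 h was not kept, with 62.3% at 24 h and 62.6% in control. At 4 h the H3.3 interval of this share (45.2 to 64.1) overlapped that of its control (61.1 to 68.7). The share of start regions centred downstream differed by 11.7 and -2.6 points at 4 h, a gap of 14.3, and by 16.4 and -17.6 at 24 h, a gap of 34.0. For H3.3 at 4 h the interval (50.4 to 75.3, 63 regions) included the control value of 66.1%, so no direction can be read there. The share of CpG-rich promoters differed by 27.7 and -17.1 points at 4 h, a gap of 44.8, and by 35.7 and -22.1 at 24 h, a gap of 57.8. Here too the H3.3 interval at 4 h (41.5 to 68.7, 56 promoters) overlapped that of control (67.7 to 76.9). Both times share the same control library of each histone. The number of genes with a start region did not part in this way: it was lower at 4 h than in control for both histones (-448 and -355 genes) and higher at 24 h (64 and 819 genes).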

How the results depend on the processing

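No paired analysis was possible because each group has 1 ChIP library. Values are in the order H3.1 control, 4 h, 24 h, then H3.3 control, 4 h, 24 h, and the cause of each change was not tested, apart from the window, which admits fewer or more regions by construction. The share at gene ends was 3.16%, 4.23%, 6.75%, 5.71%, 3.07% and 2.66% with a window of 250 bp, 7.13%, 9.3%, 13.8%, 12.4%, 7.8% and 6.21% with 1000 bp, and 2.82%, 3.99%, 6.4%, 5.44%, 2.91% and 2.34% by region centre. It was 3.81%, 4.19%, 5.21%, 6.47%, 1.79% and 3.41% at a fold of at least 8, and 5.73%, 8.44%, 15.1%, 11.6% and 5.73% at equal list length (H3.3 4 h sets the length), which ranks by a score not adjusted for depth. Without chromosome 19 it was 4.23% (H3.1 control) and 3.69% (H3.3 24 h), and without regions lacking an input tag 4.07% (H3.3 24 h). The start share of stranded regions moved to 44.4% (H3.1 control) and 59.5% (H3.3 control) at 1000 bp, to 72.8% (H3.1 24 h) and 68.9% (H3.3 control) among genes with no other gene end within 1000 bp, and, at a fold of at least 8, to 37.7% (H3.1 control), 72.2% (H3.1 4 h, 18 regions), 0.0% (H3.3 4 h, 3 regions) and 42.5% (H3.3 24 h). At equal list length, an alternative chosen after seeing the data, it was 37.6% (H3.1 control) and 62.3% (H3.3 24 h), so that H3.3 24 h was close to its control (62.6%) and no longer stood below H3.3 4 h (54.8%). With an overlap of at least 250 bp, 4.29% of H3.1 4 h and 1.78% of H3.1 24 h gene-end regions were shared with H3.1 control, 0.752% of H3.3 control with H3.3 24 h, 24.5% of H3.1 control with H3.3 24 h and 7.27% of H3.3 control with H3.1 24 h. With the 166 highest-scoring gene-end regions of each list these pairs shared 0.602%, 0.602%, 0.0%, 4.82% and 1.81%, and H3.3 4 h shared 3.01% with control. CpG-rich promoters, under alternatives chosen after seeing the data, were 93.3% (H3.3 control, 15 promoters) and 46.5% (H3.3 24 h) at a fold of at least 8; 35.0%, 57.4%, 87.5% and 77.3% for the H3.1 lists and H3.3 control with the 63 highest-scoring start regions; and 67.6% at 24 h and 20.8% in control (H3.1), and 34.6% at 24 h and 65.1% in control (H3.3), with regions across the start. In that share H3.1 at 24 h stayed above its control, and H3.3 at 24 h below its control, under each of these. The other 44 values stayed within the interval of the value reported. With a window of 1000 bp, 19 of 72 gene list counts moved by over 1.5 times, all upward.

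With 1 library per group the intervals leave out variation between cultures. Folds rest on few input tags, the medians being 2 to 5 per region. Gene starts on chromosome 8 and others without strand, 4161 genes, were not split. The RefSeq start is the outermost 5′ end, and other start sites of a gene were not used here.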

Other observations

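Families of genes that share the letters of their symbol were compared, with at least 60 members with strand. In most of them the exact interval of the share with a start region included the share of all genes in each list. The exceptions were OR, IL and SLC, and for SLC only the H3.3 control interval missed that share, narrowly. With many families and lists compared, some intervals can miss it by counting error alone, and no allowance was made for this. Of 314 olfactory receptor genes (OR), 5 had an H3.3 24 h start region (1.59%, 0.519 to 3.68, 7.83% of all genes) and 6 an H3.1 control one (1.91%, 0.704 to 4.11, 4.29% of all genes), and none had one in the other 4 lists. Of 69 interleukin and interleukin receptor symbols (IL), 11 had an H3.3 24 h start region (15.9%, 8.24 to 26.7, 7.83% of all genes) and 8 an H3.1 control one (11.6%, 5.14 to 21.6, 4.29% of all genes), among them IL36G, IL9 and IL3RA in both. Of 303 solute carrier genes (SLC), 32 had an H3.3 24 h start region (10.6%, 7.34 to 14.6, 7.83% of all genes) and 15 an H3.3 control one (4.95%, 2.8 to 8.03, 2.65% of all genes). Of 437 ZNF genes, 38 had one in H3.3 24 h (8.7%, 6.23 to 11.7, 7.83% of all genes) and 19 in H3.1 24 h (4.35%, 2.64 to 6.71, 4.69% of all genes), both near the share of all genes. These families were chosen after the regions were seen.

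The share of genes with a region varied with gene length differently from list to list. In H3.3 control, end regions lay at 2.4% of genes in the shortest of 4 equal groups by length and at 0.835% in the longest, and in H3.1 24 h at 2.91% and 1.47%. Start regions lay at 3.21% and 2.93% in H3.3 control and at 4.48% and 5.24% in H3.1 24 h. In the 2 long lists both were lower in the longest group. In H3.3 24 h they were 8.98% in the shortest and 4.93% in the longest at starts, and 11.5% and 6.96% at ends, and in H3.1 control 5.46% and 3.19% at starts and 7.92% and 4.63% at ends.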
